A study of Mus musculus with 8 samples.

Results

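The purinergic and adenosine genes examined here were 8 genes chosen by name for their place in the handling of extracellular nucleotides, namely Entpd1, Nt5e, Adora2a, P2rx7, P2rx4, P2ry10, Ada and Dpp4. Each symbol matched 1 row of the deposited tables, out of 47069 Ensembl genes present in both, and all 8 passed the filter on low values (1 FPKM or more in 4 or more of the 8 libraries) with 12273 genes in all. FPKM (fragments per kilobase of transcript, scaled to library size) is a level per length, so genes can be set side by side on it. RNA came from regulatory T cells (Tregs) sorted from lymph nodes of C57BL/6 mice of 6 to 8 weeks that carried both 35EbiT and the Blimp1-GFP KI, so every library comes from double-reporter animals. The sort took CD4+ CD25+ cells with low CD62L and divided them into Ebi3-Treg (Thy1.1+ Blimp1-) and Blimp1-Treg (Thy1.1- Blimp1+). Each population had 4 libraries, and the labels do not say whether these were separate animals or pools, so each p value reflects only how far these libraries scatter, and that scatter may be technical. Replicates 1 and 2 of both populations stood in one table and replicates 3 and 4 in another.

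ATP released by cells acts as a danger signal, and adenosine made from it restrains T cells. CD39 (Entpd1) strips ATP and ADP to AMP, and CD73 (Nt5e) turns AMP into adenosine, so a Treg that bears both can make an inhibitory nucleoside at its surface. Adenosine signals through the A2A receptor, which raises cAMP, and adenosine deaminase ends the signal by conversion to inosine. ATP itself opens the P2X channels, of which P2X7 is known for driving shedding and death of T cells at high ATP.

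The library checks bear on all values that follow. The depth behind the FPKM values was 13.3 to 31.3 M fragments (M, mega), and by the smallest whole numbers that fit the values, 80 to 29023 fragments stood behind each value of the 8 genes. Ebi3 and Prdm1, the reporter genes, separated the populations without overlap (log2 fold changes 1.80 and -4.43). Summed Treg markers (Foxp3, Il2ra, Ikzf2, Ctla4 and Tnfrsf18) were at 1585 to 2919 FPKM in Ebi3-Treg and 2014 to 4804 FPKM in Blimp1-Treg. Summed T cell markers (Cd3e, Cd3d, Cd3g, Cd4 and Trac) were at 4404 to 6838 FPKM in Ebi3-Treg and 6196 to 9766 FPKM in Blimp1-Treg. All 5 T cell and all 5 Treg markers had negative log2 fold changes (medians -0.39 and -0.27), as Entpd1 and Nt5e did, and none passed, while 2 of each list did with the replicate number as a block. Cd3e (-0.45) and Trac (-0.62) did not overlap between populations, and the part of these shifts in the results was not tested. Summed B cell markers (7 genes) were at 254 and 175 FPKM in the libraries numbered 1. In the other 6 they were at 31.6 to 71.5 FPKM. Within every replicate number this sum was larger for Ebi3-Treg (254 against 175, 48.7 against 31.6, 71.5 against 35.9 and 62.3 against 34.2). All 4 tested B cell markers had positive log2 fold changes (median 0.36). None passed, while 2 did with the block, and the part of this excess in the results was not tested. Summed macrophage or monocyte markers (6 genes) were at 109 and 97.7 FPKM in Ebi3-Treg 1 and 2, mostly from Lyz2 (99.1 and 91.1 FPKM), and at 8.97 to 36.8 FPKM elsewhere. Summed stromal or endothelial markers (7 genes, 4 of them under 1 FPKM in all libraries) were at 31.1 to 66.9 FPKM in Ebi3-Treg and 16.8 to 34.3 FPKM in Blimp1-Treg, and their part in the results was not tested. Plasma cell markers (4 genes) summed to 2.59 to 34.6 FPKM in Ebi3-Treg and 4.40 to 23.4 FPKM in Blimp1-Treg, while NK cell (24.8 FPKM) and CD8 T cell (39.3 FPKM) sums were highest in Ebi3-Treg 1. The libraries numbered 2 stood apart in Crem, a cAMP-responsive gene, with 239.8 and 392 FPKM against 21.3 to 65.3 FPKM in the other 6. Xist was at 0.0750 FPKM or less in the first table and at 18.5 FPKM or more in the second, so the sex of the mice and the table cannot be told apart.

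The 250 bases before the annotated starts of Entpd1, Nt5e and Enpp1 are shown. These genes of extracellular nucleotide hydrolysis were chosen after the calls were seen, because all were lower in Ebi3-Treg. Alpl, another ectoenzyme gene, was called higher (log2 fold change 1.43) and is not shown. The sequences are RefSeq's, on GRCm38.p6, while the submitters' processing notes name mm9, so no coordinate was joined to the deposited values. Capitals mark a match, on either strand, to AGNGAAAG, TGACGTCA or ACGTG. The first is a core bound by Blimp1 and the second is the cAMP response element. ACGTG is a form of the core of the hypoxia response element, and the form GCGTG was not searched. Each motif was searched on its own, so matches could overlap.
Entpd1, first start, chr19:40612116-40612365, plus strand: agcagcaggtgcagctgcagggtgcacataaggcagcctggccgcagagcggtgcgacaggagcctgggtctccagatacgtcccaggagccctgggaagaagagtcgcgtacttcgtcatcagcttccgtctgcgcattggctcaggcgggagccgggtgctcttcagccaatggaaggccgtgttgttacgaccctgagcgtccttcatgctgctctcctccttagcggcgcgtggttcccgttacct
Entpd1, second start, chr19:40659520-40659769, plus strand: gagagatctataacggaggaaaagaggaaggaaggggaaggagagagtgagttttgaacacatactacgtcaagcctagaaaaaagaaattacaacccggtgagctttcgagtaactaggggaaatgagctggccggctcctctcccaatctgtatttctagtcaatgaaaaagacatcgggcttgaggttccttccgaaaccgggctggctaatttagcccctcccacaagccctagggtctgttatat
Nt5e, chr9:88327359-88327608, plus strand: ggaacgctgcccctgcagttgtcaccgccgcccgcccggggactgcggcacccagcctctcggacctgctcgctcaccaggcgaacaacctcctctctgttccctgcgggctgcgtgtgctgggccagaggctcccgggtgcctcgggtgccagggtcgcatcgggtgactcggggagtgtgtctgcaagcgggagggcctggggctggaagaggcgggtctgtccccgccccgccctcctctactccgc
Enpp1, chr10:24712160-24712409, minus strand: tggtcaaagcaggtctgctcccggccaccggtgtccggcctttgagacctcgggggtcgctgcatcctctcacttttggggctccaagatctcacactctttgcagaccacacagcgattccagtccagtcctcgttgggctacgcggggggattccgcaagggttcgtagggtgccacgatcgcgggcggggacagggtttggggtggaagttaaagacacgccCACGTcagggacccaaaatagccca
The only match to the searched motifs in these 4 windows was an ACGTG on the opposite strand in Enpp1, beginning at position -25 from the start. The unsearched GCGTG, left unmarked, stands in Nt5e, at the first start of Entpd1 and, on the opposite strand, in Enpp1. Its share over all windows was not counted. Of 32851 windows of the same length, 7.30% held AGNGAAAG, 1.55% TGACGTCA and 16.6% ACGTG. The windows of Nt5e (72.0% G or C, 21 CG pairs), the first start of Entpd1 (62.4%, 18 pairs) and Enpp1 (61.2%, 17 pairs) were richer in G and C than the median window (52.4%), and the second start of Entpd1 was poorer (47.2%, 8 pairs). Windows were given for 7 of the 8 genes. A missing match says only that these letters are not in these windows.

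The transcripts of CD39 and CD73 were both lower in Ebi3-Treg. Nt5e (ENSMUSG00000032420), which encodes CD73, was at 118, 85.5, 141 and 150.1 FPKM in Ebi3-Treg 1 to 4 and at 272, 220.5, 282 and 304 FPKM in Blimp1-Treg 1 to 4. Every Blimp1-Treg library was above every Ebi3-Treg library. The means were 124 ± 28.9 and 269.8 ± 35.5 FPKM (SD, n = 4), a level 2.18-fold higher in Blimp1-Treg. The log2 fold change, taken throughout on log2(FPKM + 1) with Blimp1-Treg subtracted from Ebi3-Treg, was -1.14 (SE 0.15, limma adjusted p = 0.00521, lower in 4 of 4 replicate numbers). It was -1.28 in replicates 1 and 2 and -1.004 in replicates 3 and 4. Without either pair of libraries numbered 3 or 4 the value was -1.19 and -1.18 (SE 0.22 and 0.23), and the call was lost (limma adjusted p = 0.101 and 0.106). In these 2 settings 94 and 92 genes were called in all, against 772 with all libraries.

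Entpd1 (ENSMUSG00000048120), which encodes CD39, was at 37.2, 32.0, 44.5 and 55.3 FPKM in Ebi3-Treg 1 to 4 and at 97.9, 83.8, 71.8 and 77.9 FPKM in Blimp1-Treg 1 to 4. The populations again did not overlap, and the gap was widest in the first table, where Ebi3-Treg was lowest and Blimp1-Treg highest. The means were 42.2 ± 10.1 and 82.9 ± 11.2 FPKM (SD, n = 4), 1.96-fold higher in Blimp1-Treg, with a log2 fold change of -0.98 (SE 0.19, limma adjusted p = 0.0241, lower in 4 of 4 numbers). It was -1.37 in replicates 1 and 2 and -0.58 in replicates 3 and 4. The difference between tables was 0.78 on the log2 scale (unadjusted p = 0.0337, limma adjusted p = 0.99996, and 0.133 in a fit that blocks on the replicate number). The call of Entpd1 was close to the threshold. It was lost without Ebi3-Treg 2 (-0.85, adjusted p = 0.0610) or 3 (-0.99, 0.0815), and without Blimp1-Treg 1 (-0.85, 0.0591), 2 (-0.94, 0.0534) or 4 (-1.03, 0.0748). It was lost as well with no filter on low values (0.0679), in the second table alone (0.0519) and without both libraries numbered 3 (-1.07, 0.163) or 4 (-1.14, 0.131). Without the pair numbered 1, highest in B cell markers, it was -0.84 (adjusted p = 0.0252), and without both numbered 2 it was -0.85 (0.0236). Without Ebi3-Treg 1, the library highest in NK, CD8 T cell, plasma cell and macrophage markers, it was -0.94 (adjusted p = 0.0485). The part of macrophage transcripts in Ebi3-Treg 1 and 2 was not tested, and these were the libraries with the lowest Entpd1. In RNA from sorted pools, fewer cells with a transcript and less of it per cell cannot be told apart.

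**Figure D1:**
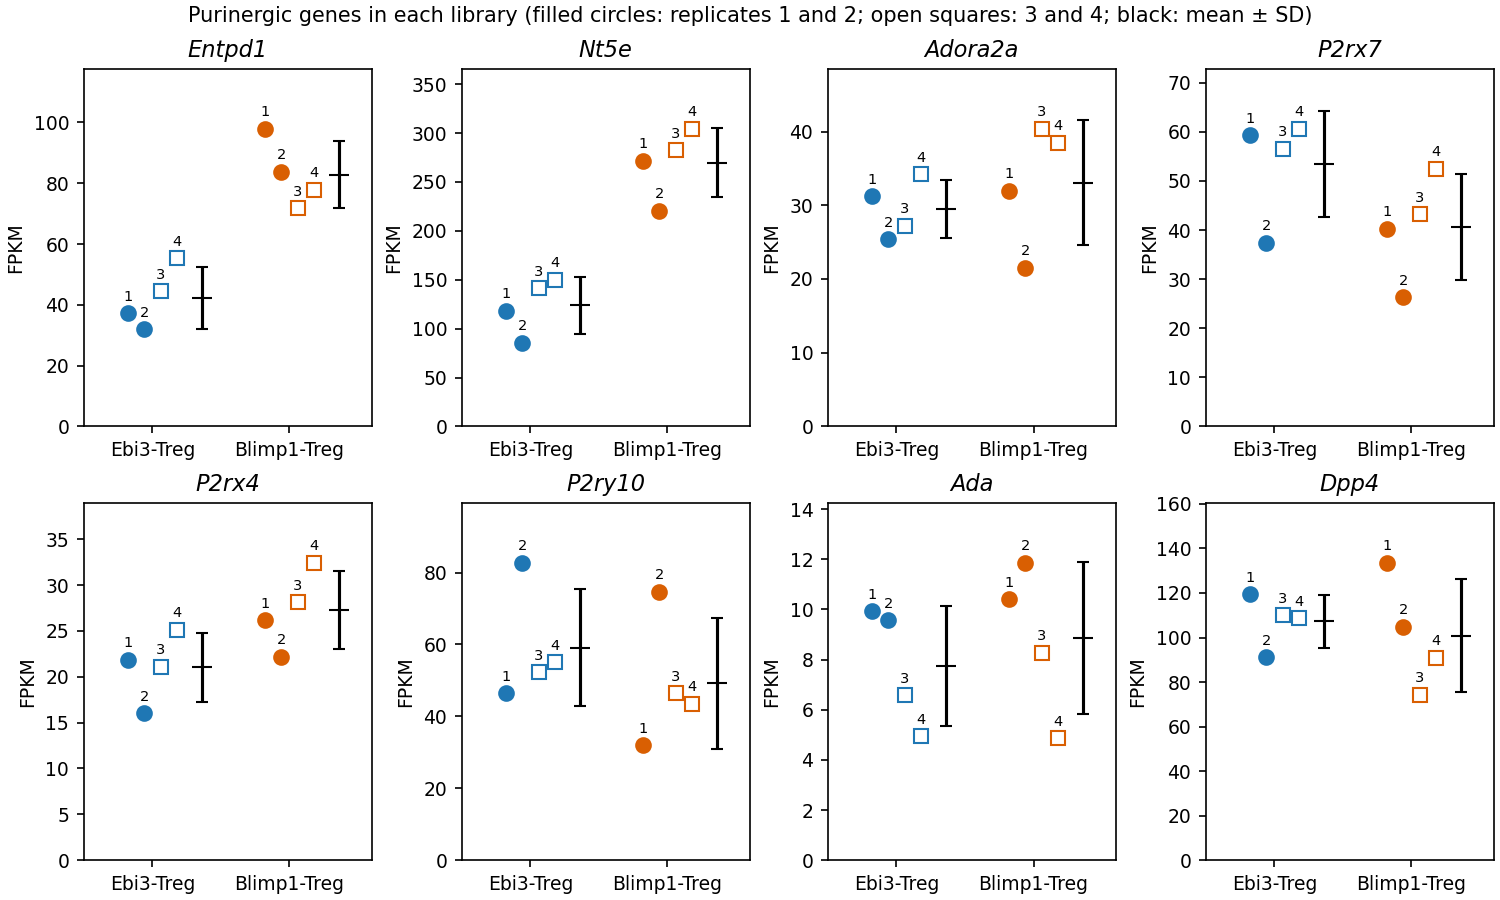
FPKM of the 8 genes in each library, with replicate numbers above the points, filled circles for replicates 1 and 2, open squares for 3 and 4, and black bars for the mean ± SD of 4 libraries. Entpd1 and Nt5e separate the populations without overlap (Nt5e at 85.5 to 150.1 FPKM in Ebi3-Treg and 220.5 to 304 FPKM in Blimp1-Treg), while the values of the other 6 genes overlap between populations.

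Of the 8 genes, 2 were lower and 0 higher in Ebi3-Treg with limma, and 6 did not pass (at an unadjusted p under 0.05, 3 were lower and 0 higher). Among all tested genes 2.93% were called lower and 3.37% higher, and at an unadjusted p under 0.05 the shares were 7.57% (929 genes) and 11% (1353 genes). The unadjusted counts given below for other lists are to be read against these. The median log2 fold change of the 8 genes was -0.14, beside 0.07 over all tested genes. No overlap with Ebi3-Treg below, as in Entpd1 and Nt5e, was found in 4.5% of all tested genes, and no overlap with Ebi3-Treg above, found in none of the 8, in 6.63%. A fit that blocks on the replicate number called 1 of the 8 higher and 3 lower, where 13.5% and 8.94% of all genes were called. The 2 added by the block were P2rx7 and P2rx4. The block treats same-numbered libraries as pairs, and within tables the data show such pairing for numbers 1 and 2 only. The share of all tested genes with the same direction within every replicate number was not counted. Such directions, given for single genes, are therefore description only.

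By mean FPKM over the 8 libraries the order was Nt5e, Dpp4, Entpd1, P2ry10, P2rx7, Adora2a, P2rx4 and Ada, from the percentile 95.6 of tested genes for Nt5e to 35.6 for Ada. In Ebi3-Treg the ranges of Nt5e and Dpp4 overlapped and Entpd1 lay below both. In Blimp1-Treg Nt5e lay above all other members, and the ranges of Dpp4 and Entpd1 overlapped. Adora2a and P2rx4 overlapped in Blimp1-Treg, and Ada lay below the other 7 genes in both populations.

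The ratio of Nt5e to Entpd1 within a library ran from 2.67 to 3.18 in Ebi3-Treg and from 2.63 to 3.93 in Blimp1-Treg. The transcripts thus stood in overlapping proportions, and the enzymes themselves were not measured. The highest ratios were those of Blimp1-Treg 3 and 4 (3.93 and 3.91), and those of Blimp1-Treg 1 and 2 (2.78 and 2.63) lay within or below the Ebi3-Treg range. The genes whose profile was most like that of Nt5e, by the root mean square difference of log2(FPKM + 1) centred within each table over the 8 libraries, were Timd2 (0.07), Vps54 (0.08) and Gm2a (0.10). Those most like Entpd1 were Iigp1 (0.08), Lztfl1 (0.13) and Egln3 (0.13). Timd2 was near the floor, averaging only 0.15 (Ebi3-Treg) and 1.61 FPKM (Blimp1-Treg), far below Nt5e. Its likeness to Nt5e therefore holds on log2(FPKM + 1), where the added 1 weighs heavily at such levels, and not on FPKM itself. Entpd1 and Nt5e were 0.17 from each other, and 11 genes lay closer to Entpd1.

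Adora2a did not pass the test. It (ENSMUSG00000020178) encodes the A2A receptor, and was at 31.3, 25.4, 27.2 and 34.2 FPKM in Ebi3-Treg 1 to 4 and at 31.9, 21.5, 40.4 and 38.5 FPKM in Blimp1-Treg 1 to 4. The values of Ebi3-Treg lay within those of Blimp1-Treg. The log2 fold change was -0.13 (95% interval -0.56 to 0.30, limma adjusted p = 0.838). The first table gave 0.10 and the second -0.36. The other adenosine receptor genes, Adora1, Adora2b and Adora3, peaked at 0.536 FPKM and were too low to be tested, so Adora2a was the 1 adenosine receptor transcript above 1 FPKM.

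The ATP-gated channels P2rx7 and P2rx4, neighbouring genes on the same strand, had log2 fold changes of opposite sign and did not pass without the block. P2rx7 (ENSMUSG00000029468) was at 59.3, 37.4, 56.6 and 60.6 FPKM in Ebi3-Treg 1 to 4 and at 40.2, 26.3, 43.2 and 52.4 FPKM in Blimp1-Treg 1 to 4. Ebi3-Treg 2 lay among the Blimp1-Treg values, but Ebi3-Treg was above Blimp1-Treg within all 4 numbers. Its log2 fold change was 0.41 (SE 0.20, 95% interval -0.06 to 0.87, limma adjusted p = 0.346, and 0.0179 in the blocked fit).

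P2rx4 (ENSMUSG00000029470), a channel of higher ATP affinity, was at 21.9, 16.0, 21.1 and 25.1 FPKM in Ebi3-Treg 1 to 4 and at 26.2, 22.2, 28.1 and 32.5 FPKM in Blimp1-Treg 1 to 4. Only Ebi3-Treg 4 reached into the Blimp1-Treg range, and Ebi3-Treg was below Blimp1-Treg within all 4 numbers. The log2 fold change was -0.36 (SE 0.15, 95% interval -0.72 to -0.01, limma adjusted p = 0.258, and 0.0228 in the blocked fit). The ratio of P2rx7 to P2rx4 was 2.71, 2.33, 2.68 and 2.41 in Ebi3-Treg 1 to 4 and 1.54, 1.19, 1.54 and 1.62 in Blimp1-Treg 1 to 4. These ratios, chosen after the values were seen and not tested, did not overlap between the populations. The P2X genes P2rx1, P2rx2, P2rx3, P2rx5 and P2rx6 reached at most 2.56 FPKM (P2rx5).

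**Figure D2:**
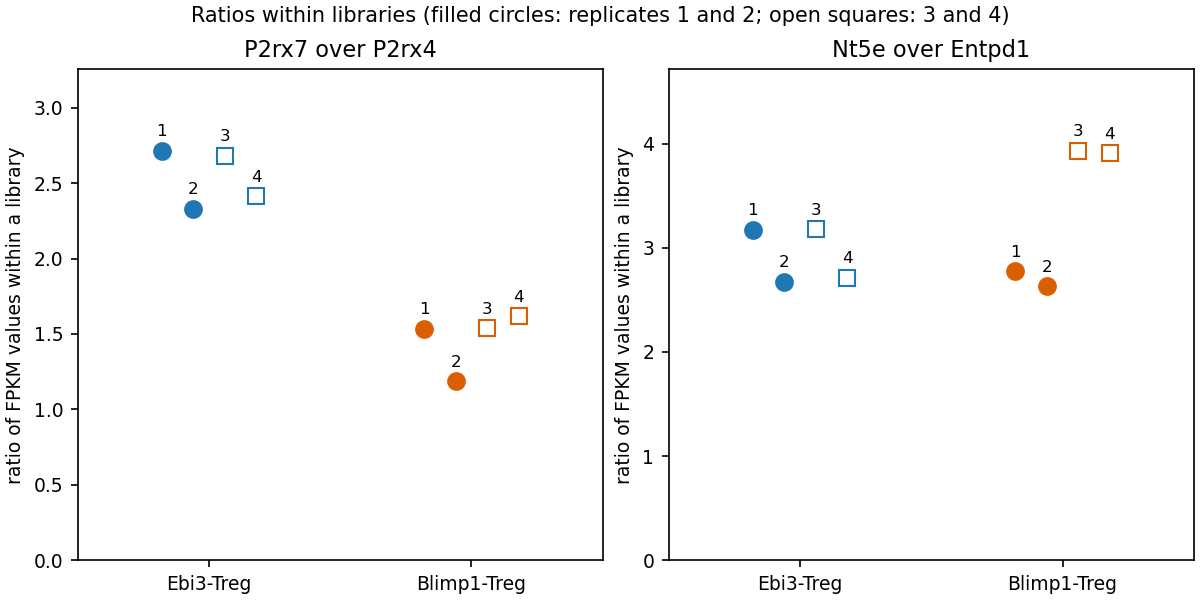
Ratios of FPKM values within each library, P2rx7 over P2rx4 on the left and Nt5e over Entpd1 on the right, with replicate numbers above the points. The left ratio is 2.33 to 2.71 in Ebi3-Treg and 1.19 to 1.62 in Blimp1-Treg, and the right ratio overlaps between the populations.

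P2ry10 (ENSMUSG00000050921) is named after the P2Y receptors but encodes a receptor known for lysophosphatidylserine. It was at 46.4, 82.8, 52.3 and 55.0 FPKM in Ebi3-Treg 1 to 4 and at 32.0, 74.7, 46.4 and 43.5 FPKM in Blimp1-Treg 1 to 4. The libraries numbered 2 were the highest of each population. Ebi3-Treg was above Blimp1-Treg within all 4 numbers by 0.15 to 0.52 on the log2 scale, and the fitted log2 fold change of 0.29 did not pass (95% interval -0.36 to 0.94, limma adjusted p = 0.710, and 0.0605 with the block). Its neighbour P2ry10b was far lower, at 1.08 to 2.50 FPKM, with a log2 fold change of 0.36 (adjusted p = 0.341). How reads shared by such related genes were counted is not known here. The P2Y receptors of nucleotides (P2ry1, P2ry2, P2ry4, P2ry6, P2ry12, P2ry13 and P2ry14) reached at most 1.89 FPKM (P2ry14).

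The genes that dispose of adenosine, or are tied to that step, did not pass. Ada (ENSMUSG00000017697), which encodes adenosine deaminase, was the lowest of the 8, at 9.92, 9.57, 6.57 and 4.94 FPKM in Ebi3-Treg 1 to 4 and 10.4, 11.9, 8.28 and 4.86 FPKM in Blimp1-Treg 1 to 4. In both populations the libraries of the first table were above those of the second. Its log2 fold change was -0.16 (95% interval -0.60 to 0.29, limma adjusted p = 0.794). Ada rested on 80 to 364 fragments a library.

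Dpp4 (ENSMUSG00000035000) encodes the peptidase CD26, which binds adenosine deaminase on human cells. It was at 119, 91.1, 110.0 and 109 FPKM in Ebi3-Treg 1 to 4 and at 134, 105, 74.3 and 90.8 FPKM in Blimp1-Treg 1 to 4. The populations overlapped, and the sign turned between tables, from -0.18 in the first to 0.41 in the second (difference 0.59, unadjusted p = 0.116, limma adjusted p = 0.99996). The pooled log2 fold change was 0.11 (95% interval -0.31 to 0.53, adjusted p = 0.855). An antisense gene, Gm13561, shares 232 exon bases with Dpp4 (3.67% of its exons) but reached at most 0.329 FPKM.

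**Figure D3:**
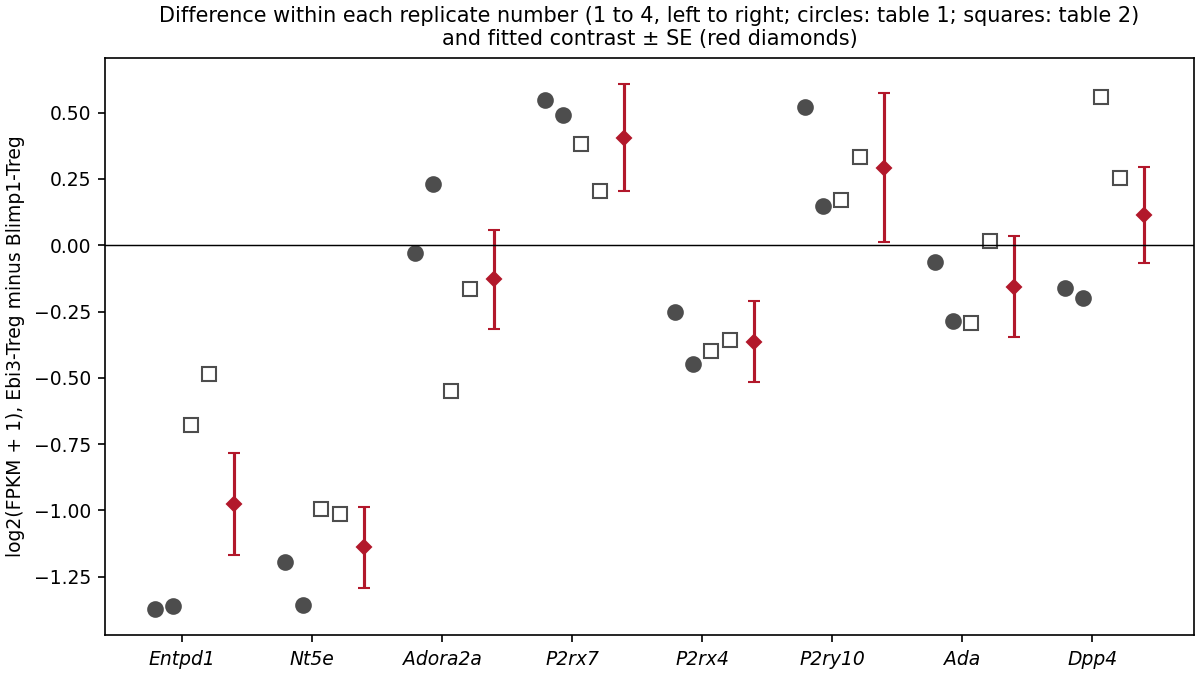
Difference of log2(FPKM + 1), Ebi3-Treg minus Blimp1-Treg, within replicate numbers 1 to 4 from left to right (circles, first table; squares, second table), and the fitted log2 fold change ± SE as red diamonds. Entpd1, Nt5e and P2rx4 lie below 0 in 4 of 4 numbers, and P2rx7 and P2ry10 above 0 in 4 of 4. Adora2a, Ada and Dpp4 lie on both sides. How many of all tested genes lie on the same side in 4 of 4 was not counted.

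The difference between tables was also fitted for all 8 genes, and limma called 0 of them and 0 of all 12273 tested genes. With 0 calls over all genes, this count cannot decide whether the tables agree for the 8. At an unadjusted p under 0.05, 1 of 8 (Entpd1) differed, and 203 of all 12273 tested genes. Replicates 1 and 2 alone called 0 of the 8 (2 lower at an unadjusted p under 0.05) and 0 genes in all (419 higher and 288 lower at an unadjusted p under 0.05). Replicates 3 and 4 alone called 1 of the 8, Nt5e (adjusted p = 0.00575), beside 11% of all genes.

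Other genes of the same chemistry were taken as 5 lists, for which 90 symbols matched and 53 genes were tested. In Ebi3-Treg limma called 2 higher and 1 lower, that is 3 beside 6.29% of all genes, and the remaining 50 did not pass. The block called 8 higher and 7 lower, where 22.4% of all genes were called. The median log2 fold change of the 53 genes was 0.09.

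Among ectonucleotidases and NAD ectoenzymes, 12 were tested, of which Alpl was higher and Enpp1 lower while 10 did not pass; the block made that 2 higher and 3 lower. Enpp1 (ENSMUSG00000037370), which cleaves ATP to AMP and pyrophosphate, was at 5.51, 5.04, 5.39 and 4.13 FPKM in Ebi3-Treg 1 to 4 and at 17.0, 15.5, 10.6 and 13.9 FPKM in Blimp1-Treg 1 to 4. The populations did not overlap, and the log2 fold change was -1.33 (SE 0.17, adjusted p = 0.00407). The first table gave -1.46 and the second -1.20. The call was lost without both libraries numbered 3 (adjusted p = 0.0533) or 4 (0.106). Enpp1, Entpd1 and Nt5e were the surface enzyme genes of nucleotide breakdown called lower in Ebi3-Treg.

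Alpl (ENSMUSG00000028766) encodes the tissue-nonspecific alkaline phosphatase, which can also release adenosine from AMP, and went the other way. It was at 10.9, 9.82, 9.57 and 12.2 FPKM in Ebi3-Treg 1 to 4 and at 2.10, 1.68, 5.78 and 5.07 FPKM in Blimp1-Treg 1 to 4. The populations did not overlap, and within Blimp1-Treg the first table was lower than the second. The log2 fold change was 1.43 (SE 0.25, adjusted p = 0.0153). The first table gave 1.98 and the second 0.88 (difference -1.10, unadjusted p = 0.0158, limma adjusted p = 0.99996). The call was lost without Ebi3-Treg 4 (adjusted p = 0.0538), without both libraries numbered 3 (0.0683) or 4 (0.150), and without the table term (0.0516).

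Acpp, an acid phosphatase with activity on AMP, was chosen after its values were seen because the block called it. Its log2 fold change was -0.98 (adjusted p = 0.138, and 0.00284 with the block), and that of Cd38, which consumes NAD, was -0.36 (0.145, and 0.0212 with the block). Entpd6 was at 0.54 on the same scale (0.332, and 0.00763 with the block). Art2b, whose product can modify P2X7 with ADP-ribose, was abundant, at 61.5 to 150.3 FPKM in Ebi3-Treg and 98.2 to 146 FPKM in Blimp1-Treg, with overlapping values (-0.37, adjusted p = 0.512). The surface relatives of CD39 encoded by Entpd2, Entpd3 and Entpd8 reached at most 0.681 FPKM, against 32.0 to 97.9 FPKM for Entpd1.

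Of 5 nucleotide and adenosine receptor genes tested besides the 8, none was called with limma (1 higher and 0 lower at an unadjusted p under 0.05), and 13 were too low. The most abundant were Gpr174 and Gpr34, further receptors of lysophosphatidylserine, and P2ry10b. Gpr174 was at 34.0 ± 10.4 against 25.5 ± 6.97 FPKM (SD, n = 4), a log2 fold change of 0.39 (adjusted p = 0.152, and 0.0211 with the block). Gpr34 had one of 0.22 (adjusted p = 0.742), and its sign turned between tables (-0.28 in the first, 0.71 in the second).

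Of 15 genes of adenosine handling and transport, none was called with limma (2 higher and 1 lower at an unadjusted p under 0.05). The most abundant were the cytosolic nucleotidase genes Nt5c (-0.06, adjusted p = 0.937) and Nt5c3b (0.22, 0.476) and the nucleoside transporter gene Slc28a2 (-0.31, 0.494). The block called 2 higher, named after their values were seen, namely Ampd3, an AMP deaminase gene (log2 fold change 0.95, adjusted p = 0.112, and 0.00244 with the block), and Slc29a3, a transporter gene of lysosomes (0.53, 0.243, and 0.0182 with the block).

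Of 4 genes of ATP release channels and vesicles tested, none was called with limma (0 higher and 1 lower at an unadjusted p under 0.05). Panx1, which encodes a channel through which T cells release ATP, was at 82.3, 94.2, 72.2 and 76.2 FPKM in Ebi3-Treg 1 to 4 and at 116, 139, 100.4 and 99.2 FPKM in Blimp1-Treg 1 to 4. The populations did not overlap, while the adjusted p of 0.0610 (log2 fold change -0.47, SE 0.12) was above the threshold and that with the block was 0.00497. The log2 fold change of Slc17a9, whose transporter loads ATP into vesicles, was 0.09 (adjusted p = 0.907), and that of Calhm2 was 0.21 (0.818).

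Of 17 genes of cAMP signalling, the route below the A2A receptor, only Pde7a was called, higher, and 16 did not pass (2 higher and 2 lower at an unadjusted p under 0.05). Pde7a (ENSMUSG00000069094), a phosphodiesterase that degrades cAMP, was at 56.2, 42.5, 45.6 and 45.1 FPKM in Ebi3-Treg 1 to 4 and at 24.8, 18.5, 25.1 and 26.4 FPKM in Blimp1-Treg 1 to 4. The populations did not overlap, and the log2 fold change was 0.97 (SE 0.16, adjusted p = 0.0127). The first table gave 1.15 and the second 0.79. It was not called without both libraries numbered 3 (adjusted p = 0.157) or 4 (0.151). The block called 3 higher (Pde7a and, named after their values were seen, Adcy3 and Prkacb) and 3 lower (Prkar1a, Crem and Pde4b).

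For Pde4b, another cAMP phosphodiesterase gene, the log2 fold change had the other sign, -0.50 (adjusted p = 0.0995, and 0.0174 with the block). Prkar1a, a regulatory subunit of protein kinase A and the most abundant gene of the list, was at 523 ± 76.8 against 771 ± 144 FPKM (SD, n = 4) without overlap (-0.55, adjusted p = 0.101, and 0.00356 with the block). Crem was lower in Ebi3-Treg than in Blimp1-Treg within all 4 numbers. In Ebi3-Treg 1 to 4 it was at 32.2, 239.8, 24.1 and 21.3 FPKM. In Blimp1-Treg 1 to 4 it was at 65.3, 392, 57.6 and 44.8 FPKM. The step between the libraries numbered 2 and the rest was larger than that between populations, and the log2 fold change of -0.99 (SE 0.70) had an adjusted p of 0.559 without the block and 0.00114 with it.

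**Figure D4:**
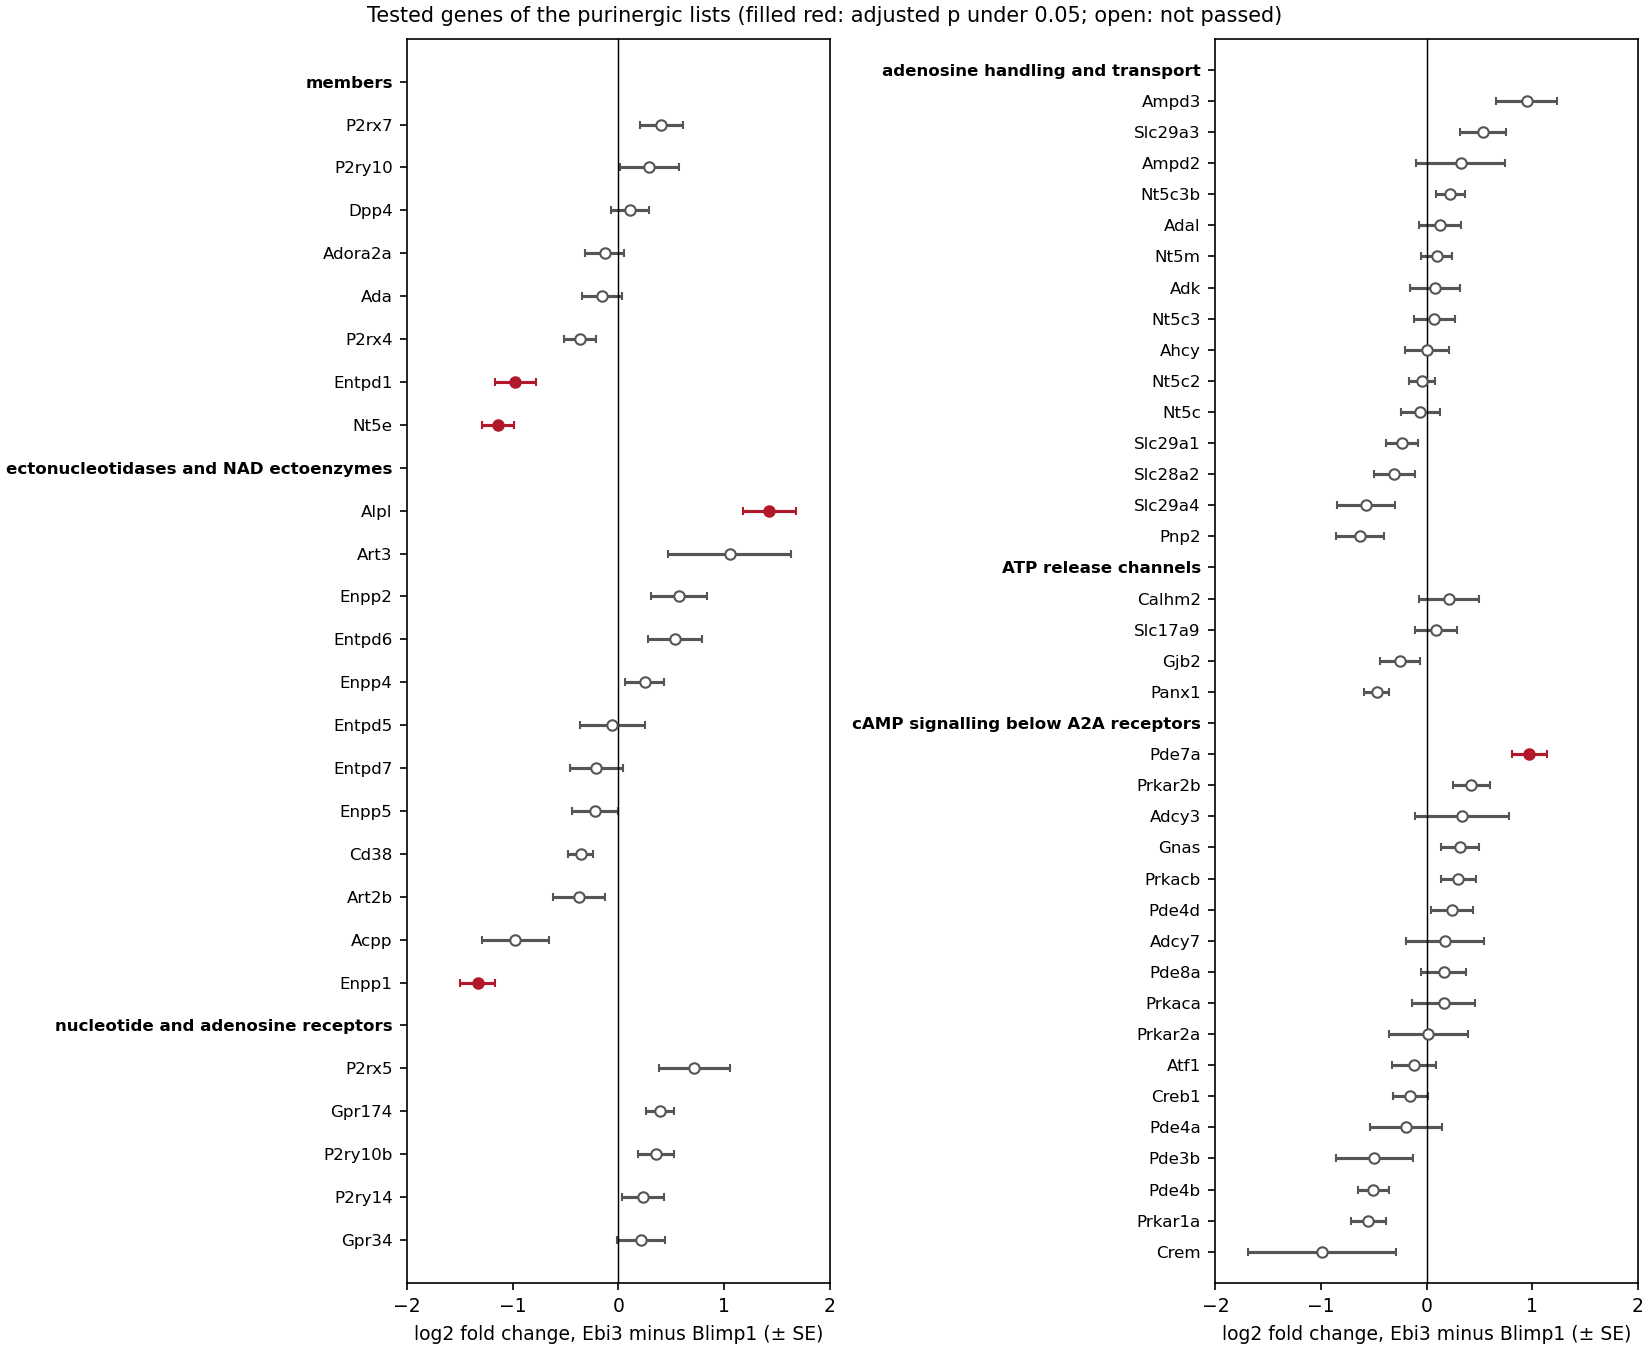
Log2 fold change (Ebi3-Treg minus Blimp1-Treg, ± SE) of the 61 tested genes of the purinergic lists, grouped by role and ordered within each group. Filled red points mark adjusted p under 0.05, which are Entpd1 (-0.98), Nt5e (-1.14) and Enpp1 (-1.33) below 0 and Alpl (1.43) and Pde7a (0.97) above 0.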

How the data were processed

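The values are FPKM as the authors deposited them, in 2 tables of 47709 and 47681 features, 1 column a library, mapped to samples by the name in each title. The submitters' processing notes name Bowtie2 2.2.3, TopHat2 2.0.12, HTSeq 0.6.1 and mm9. What each tool did, the annotation and the strand setting are not stated there. Unannotated features (640 and 612) were left out. Symbols came from GENCODE M21 names, and Art2a, Pnp and Pde2a matched no row. Depth was read from the steps of low values, with GENCODE M21 exon lengths, at which 35.0% to 45.6% of values above 0 were whole. Fragments behind the 8 genes use the shortest length at which all 8 libraries gave whole numbers, within a tolerance of 0.01, so they are minimum numbers where longer lengths also fit.

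Log2(FPKM + 1) was fitted with limma 3.58.1 (R 4.3.3) on population plus table, with a variance trend, two-sided, with Benjamini-Hochberg adjustment over 12273 genes and a threshold of 0.05. Unless a sentence names another, adjusted p values come from it. The fit was tested on simulated data with noise independent between libraries and no table effect. That test does not cover deviations shared by same-numbered libraries or by a table, as seen in these data. The 8 genes and the lists were chosen with earlier results of these data known. Genes named were the 8, all listed genes past the threshold, the 3 others with the highest mean FPKM in each list and, for Entpd1 and Nt5e, the 3 most alike genes. Others are said to be chosen after their values were seen. Same-numbered libraries deviated together from their population means (r = 0.62, 0.89, 0.53 and 0.54 across genes), which is taken from the data, not the labels. Within tables r was 0.85 for numbers 1 and 2 and -0.08 for 3 and 4.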

Additional observations from a re-analysis of the deposited data

How the results depend on the processing

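Of 23 alternatives, the direction of Entpd1, Nt5e, Enpp1, Alpl and Pde7a held in all, and the calls in 13, 20, 20, 18 and 20. Of the 8 genes 2 were called. That count was 1 with no filter on low values, 0 in replicates 1 and 2 alone and 1 in replicates 3 and 4 alone, and 0 to 2 when a library or a pair of same-numbered libraries was left out. The count of the other purinergic genes, 3, was 7 with quantile normalization, 0 in replicates 1 and 2, 10 in replicates 3 and 4, and 0 to 14 with libraries left out. Over all genes, 772 became 420 with no filter, 441 with no table term, 0 in replicates 1 and 2, 1347 in replicates 3 and 4, and 92 to 1970 with libraries left out. Leaving out both libraries numbered 3 or 4 ended the calls of Entpd1, Nt5e, Enpp1, Alpl and Pde7a. It left 94 and 92 genes called in all, so most calls over all genes were lost as well, and the cause was not tested. With the replicate number as a block, pairing same-numbered libraries, the counts were 4, 15 and 2752, and the 772 genes were all among the 2752. The block left Adora2a, P2ry10, Ada and Dpp4 uncalled. Under 4 settings limma called no gene of the 8 as different between tables (without adjustment 1 had p under 0.05, or 2 in the blocked fit). Over all genes the main fit called 0 and the blocked fit 13 (0.106%), so these counts cannot decide whether the tables agree.

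Adora2a and Dpp4, which were not called, changed sign. Adora2a was 0.10 in replicates 1 and 2 and 0.012 without both libraries numbered 3, and leaving libraries out moved it between -0.28 and 0.012. Dpp4 was -0.18 in replicates 1 and 2, -0.0031 without Blimp1-Treg 3 and -0.036 without both libraries numbered 3, and leaving libraries out moved it between -0.036 and 0.25. Over the 5 lists, 37 of 90 genes were removed by the filter on low values and not tested, and none of them exceeded 2.23 FPKM in any library.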
